A study of Mus musculus with 4 samples.

Results

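The 10 circadian clock genes *Clock*, *Arntl*, *Per1*, *Per2*, *Per3*, *Cry1*, *Cry2*, *Nr1d1*, *Nr1d2* and *Dbp* were examined in RNA-seq of *rd7* and wild-type mouse retina. They were picked by gene symbol as core components of the clock, with earlier results of these data known, and *Nr1d1* is also known as a partner of the nuclear receptor NR2E3. All 10 were among the 22095 loci of the expression table, and all 10 were among the 12655 genes with enough expression to be tested (a mean FPKM of at least 1 and a successful estimate in every library). FPKM are sequenced fragments scaled by transcript length and by the mapped total of the library, so levels of different genes can be set side by side.

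In *rd7* mice *Nr2e3* is mutated, which encodes a transcription factor that represses cone genes in developing rods, and *rd7* retinas are known for an excess of cone-like cells. Retinas of *rd7* mice, labelled as *Nr2e3* mutant on the C57BL/6J strain, were compared with wild-type C57BL/6J retinas, all at 3 weeks of age. There were 4 libraries, 2 of each genotype, and each was a pool of 8 retinas from 2 females and 2 males. Differences between libraries of a genotype are therefore differences between pools and not between animals. The hour of the day at which the retinas were collected is not given in the sources used here, so that for rhythmic genes the genotype and the hour of collection cannot be told apart.

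The mammalian clock is a loop of transcription and translation. CLOCK and BMAL1, the product of *Arntl*, form a dimer that binds E-box sequences and activates the *Per* and *Cry* genes, whose proteins later return to the nucleus and inhibit the dimer. The same dimer drives *Nr1d1* and *Nr1d2*, which encode the REV-ERB nuclear receptors that repress *Arntl*, and *Dbp*, which encodes a transcription factor of clock output. The retina holds a clock of its own, which times dopamine and melatonin signalling, the shedding of photoreceptor outer segments and visual sensitivity.

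As a check of the labels, *Nr2e3* was read first. Its level was 2493 and 1589 FPKM in the *rd7* libraries and 385 and 394 FPKM in the wild-type libraries. The description of the study's design also notes a raised transcript level in the mutant. Rod transcripts were abundant in every library, among them *Gnat1*, the rod transducin, at 2710 and 3333 FPKM in *rd7* and 5154 and 5206 FPKM in wild-type retinas, so the tissue was retina as labelled. Depth, estimated from the lowest values in the table, was between 3.49e+07 and 3.56e+07 reads per library. At that depth the clock genes rested on between 857 estimated reads (*Per2*, a counting error of 3.42%) and 8705 (*Nr1d2*, 1.07%) in a library.

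In *rd7* retinas *Clock*, *Nr1d2* and *Cry2* were higher than in wild-type, and *Dbp*, *Per2* and *Per1* were lower. The shifts were modest, from 1.62-fold for *Clock* down to 0.702-fold for *Dbp*. The other 4 genes, *Arntl*, *Per3*, *Cry1* and *Nr1d1*, did not pass the test (limma on log2(FPKM + 0.1), Benjamini-Hochberg adjustment over all 12655 genes, FDR of 5%). Among all genes tested, 37.6% were called higher and 8.80% lower in *rd7*, beside 3 and 3 of the 10 clock genes. The median log2 fold change was -0.02 over the clock genes and 0.15 over all genes, and the median of its absolute size was 0.25 and 0.22. The clock genes did not therefore stand out by the size of their differences. How the calls split between higher and lower depended on the scaling, both for the clock genes and for all genes, as given below for each scaling.

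**Figure D1:**
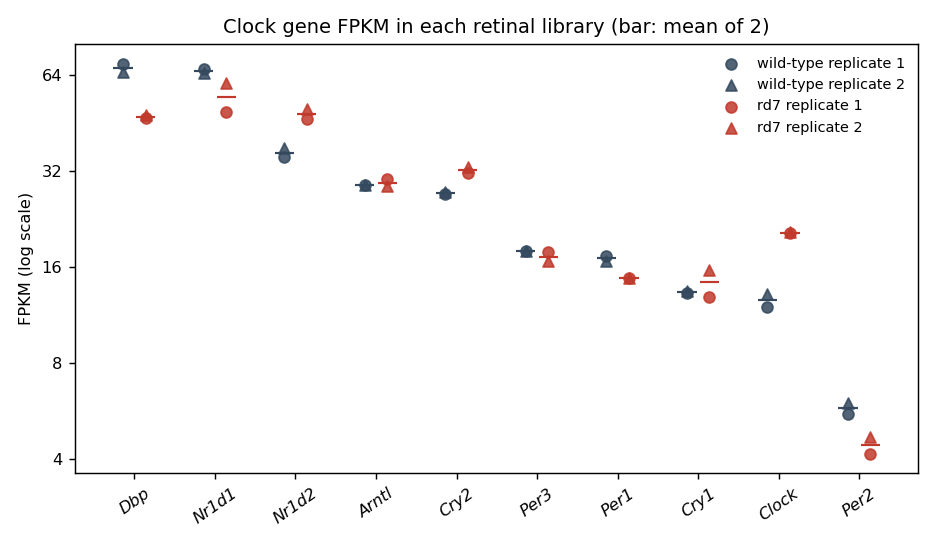
FPKM of the 10 clock genes in each of the 4 libraries, on a log axis. Points are single libraries and bars are the mean of the 2 libraries of a genotype, with *Dbp* at 46.7 and 47.7 FPKM in *rd7* below 65.3 and 69.3 in wild-type, and *Clock* at 20.4 and 20.5 in *rd7* above 12.0 and 13.1 in wild-type.

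The sequence just upstream of these genes was searched, because the loop acts through short elements in promoters. RefSeq promoter windows, from 250 bases before to 50 bases after an annotated start in the GRCm38.p6 build, were found for 9 of the 10 genes (13 windows). *Per2* was the exception. They were searched on both strands for the E-box CACGTG, the weaker E-box variant CACGTT, the D-box TTATGTAA or TTACGTAA that binds DBP and its relatives, TAGGTCA, the core of the element shared by REV-ERB and ROR receptors, and the cAMP response element TGACGTCA. An E-box lay in the windows of *Per1* and *Cry1* (2 of 9 genes), against 8.09% of all 27025 genes with a window. The CACGTT variant lay in those of *Cry1*, *Cry2* and *Nr1d1* (3 of 9), against 5.44% of all genes. A D-box was found in *Per3*, at 2 positions, against 1.23% of all genes. TAGGTCA was found in *Arntl* alone, 31 bases after one of its starts, against 2.97% of all genes. No cAMP response element was found in any of the 13 windows, and 2.03% of all genes held one. A match is a description of the letters in this window and not evidence of binding, and elements farther away or in introns were not searched. The stretches below are the 250 bases before the start, shown 5′ to 3′ on the gene's own strand, with matches on either strand in capitals. They are shown for the genes that held a match and for *Dbp*, which moved most among the genes that were lower.
*Per1*, chr11:69098699-69098948, plus strand: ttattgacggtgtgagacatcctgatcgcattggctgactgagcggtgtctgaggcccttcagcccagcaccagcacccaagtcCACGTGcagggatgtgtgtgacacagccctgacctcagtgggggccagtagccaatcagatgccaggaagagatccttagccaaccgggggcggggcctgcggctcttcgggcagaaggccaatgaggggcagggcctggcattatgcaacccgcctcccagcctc
*Per3*, chr4:151044666-151044915, minus strand: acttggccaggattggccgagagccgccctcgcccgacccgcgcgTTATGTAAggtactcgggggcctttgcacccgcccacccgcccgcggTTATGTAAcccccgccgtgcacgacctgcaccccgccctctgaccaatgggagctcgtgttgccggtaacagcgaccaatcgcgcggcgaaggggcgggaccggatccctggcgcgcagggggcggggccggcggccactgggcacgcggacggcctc
*Cry1*, chr10:85185055-85185304, minus strand: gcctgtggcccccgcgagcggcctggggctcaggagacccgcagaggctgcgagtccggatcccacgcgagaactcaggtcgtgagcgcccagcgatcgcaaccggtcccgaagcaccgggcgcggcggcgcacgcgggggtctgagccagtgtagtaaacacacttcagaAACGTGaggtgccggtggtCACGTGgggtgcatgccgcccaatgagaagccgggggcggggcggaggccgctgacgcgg
*Cry2*, chr2:92434070-92434319, minus strand: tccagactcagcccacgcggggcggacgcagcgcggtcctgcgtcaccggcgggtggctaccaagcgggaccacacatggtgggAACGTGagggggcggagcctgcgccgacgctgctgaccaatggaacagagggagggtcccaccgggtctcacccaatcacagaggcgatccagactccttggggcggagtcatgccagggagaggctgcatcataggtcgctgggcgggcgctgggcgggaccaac
*Nr1d1*, chr11:98775378-98775627, minus strand: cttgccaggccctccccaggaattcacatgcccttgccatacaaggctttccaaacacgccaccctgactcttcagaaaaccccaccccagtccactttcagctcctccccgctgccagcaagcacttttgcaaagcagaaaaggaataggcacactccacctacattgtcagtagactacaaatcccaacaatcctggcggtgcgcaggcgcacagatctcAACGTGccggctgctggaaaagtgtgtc
*Dbp*, chr7:45704997-45705246, plus strand: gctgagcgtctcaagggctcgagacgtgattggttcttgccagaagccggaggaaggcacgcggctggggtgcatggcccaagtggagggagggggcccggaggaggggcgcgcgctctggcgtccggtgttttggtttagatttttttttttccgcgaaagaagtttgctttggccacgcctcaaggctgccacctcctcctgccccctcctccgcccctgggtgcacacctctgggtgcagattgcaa
*Arntl*, the 30 bases around its match, chr7:113207529-113207558, plus strand: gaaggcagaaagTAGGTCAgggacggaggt

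Of the activators, *Clock* (chr5:76641202-76733573 in mm9, the build of the expression table) encodes the DNA-binding partner of BMAL1. It was at 20.4 and 20.5 FPKM in the *rd7* libraries and at 12.0 and 13.1 FPKM in the wild-type libraries. Both *rd7* libraries lay above both wild-type libraries, by far more than the libraries of a genotype differed. The log2 fold change was 0.70 (SE 0.06, 95% confidence interval 0.54 to 0.85, adjusted p = 0.0013). *Clock* was called higher in all 13 refits with other settings or with a library left out, but its log2 fold change was 0.33 after a correction for GC content and length. Since these are whole retinas, more cells of a type and more RNA per cell cannot be told apart, here or for any gene that follows. *Arntl* (chr7:120350979-120457636), whose product is the other member of the dimer, was at 30.1 and 28.6 FPKM in *rd7* and at 28.8 and 28.9 FPKM in wild-type. The genotypes overlapped, and the log2 fold change was 0.02 (SE 0.05, 95% confidence interval -0.10 to 0.15, adjusted p = 0.734). Differences inside that interval remain compatible with these libraries, so a small difference in *Arntl* is not excluded. After a correction for GC content and transcript length the value for *Arntl* turned to -0.20 (adjusted p = 0.0378), and with each library rescaled to the median gene it was -0.13 (adjusted p = 0.0856).

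The 3 period genes encode the repressors that carry the negative limb of the loop. *Per1* (chr11:68912458-68923457) was at 14.7 FPKM in both *rd7* libraries and at 17.3 and 16.7 FPKM in the wild-type libraries. *Per2* (chr1:93312559-93355905), the least abundant of the 10 genes in every library, was at 4.15 and 4.69 FPKM in *rd7* and at 5.54 and 5.98 FPKM in wild-type. In both genes every *rd7* library lay below every wild-type library. The log2 fold change of *Per1* was -0.21 (SE 0.05, 95% confidence interval -0.34 to -0.07, adjusted p = 0.0249). That of *Per2* was -0.38 (SE 0.09, 95% confidence interval -0.60 to -0.15, adjusted p = 0.02). Without wild-type replicate 1 the log2 fold change was -0.18 for *Per1* and -0.43 for *Per2*, and without wild-type replicate 2 it was -0.23 and -0.32. Neither gene kept its call in these fits, in which calls over all genes also became fewer. *Per3* (chr4:150377764-150418731) was at 17.8 and 16.7 FPKM in *rd7* and at 17.9 FPKM in both wild-type libraries. The genotypes did not overlap but almost touched, and the log2 fold change of -0.05 did not pass the test (SE 0.06, 95% confidence interval -0.19 to 0.08, adjusted p = 0.454). After rescaling to the median gene, *Per3* was called lower, at -0.21 (adjusted p = 0.0289).

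Of the cryptochromes, the partners of the PER proteins and the stronger inhibitors of the dimer, *Cry2* was called higher and *Cry1* did not pass. *Cry1* (chr10:84594445-84647799) was at 12.9 and 15.6 FPKM in *rd7* and at 13.2 and 13.4 FPKM in wild-type. The wild-type libraries lay between the *rd7* libraries, and the log2 fold change was 0.10 (SE 0.10, 95% confidence interval -0.14 to 0.33, adjusted p = 0.452). The *rd7* libraries differed by 0.28 on the log2 scale, a gap wider than that of 88.1% of the genes tested. Without *rd7* replicate 1 the value was 0.23 and passed (adjusted p = 0.0122), and without *rd7* replicate 2 it was -0.04 (adjusted p = 0.565). *Cry2* (chr2:92243804-92274226) was at 31.4 and 32.9 FPKM in *rd7* and at 27.1 and 27.4 FPKM in wild-type. The genotypes did not overlap, and the log2 fold change was 0.24 (SE 0.05, 95% confidence interval 0.11 to 0.36, adjusted p = 0.0141), or 1.18-fold. Over all genes the median shift was 0.15, and after rescaling to the median gene the value was 0.08 (adjusted p = 0.248). The call of *Cry2* was also lost without wild-type replicate 1 (log2 fold change 0.23) or wild-type replicate 2 (0.24), with little change in the value.

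Of the REV-ERB genes, which close the second loop on *Arntl*, *Nr1d2* was called higher and *Nr1d1* did not pass. *Nr1d1* (chr11:98629249-98636556), which encodes REV-ERBα, was at 48.9 and 60.2 FPKM in *rd7* and at 66.6 and 64.5 FPKM in wild-type. Both *rd7* libraries were lower, but the gap between them, 0.30 on the log2 scale, was wider than that of 89.8% of the genes tested. The log2 fold change of -0.27 did not pass (SE 0.10, 95% confidence interval -0.52 to -0.02, adjusted p = 0.0709). The test turned on *rd7* replicate 2, the higher of the *rd7* libraries. Without it the value was -0.42 (adjusted p = 0.000257), and without *rd7* replicate 1 it was -0.12 (adjusted p = 0.0599). After rescaling to the median gene it was -0.43 and passed (adjusted p = 0.0256), and after the GC and length correction it was -0.30 and did not pass (adjusted p = 0.0926). *Nr1d2* (chr14:19036570-19071620), which encodes REV-ERBβ, was at 46.3 and 49.9 FPKM in *rd7* and at 35.2 and 37.6 FPKM in wild-type. The *rd7* libraries lay above the wild-type libraries, and the log2 fold change was 0.40 (SE 0.06, 95% confidence interval 0.25 to 0.55, adjusted p = 0.00506), or 1.32-fold. It stayed past the threshold after rescaling (0.25, adjusted p = 0.0264). It did not after the GC and length correction (0.04, adjusted p = 0.631) or without wild-type replicate 1 (0.35, adjusted p = 0.0622).

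*Dbp* (chr7:52960617-52965573) encodes a PAR bZIP transcription factor, a direct target of the CLOCK dimer that activates genes through D-boxes. It was at 46.7 and 47.7 FPKM in *rd7* and at 69.3 and 65.3 FPKM in wild-type. Both *rd7* libraries lay well below both wild-type libraries. The log2 fold change was -0.51 (SE 0.05, 95% confidence interval -0.64 to -0.38, adjusted p = 0.00171). It was -0.66 after rescaling to the median gene and -0.51 after the GC and length correction, and *Dbp* was called lower in all 13 refits. Its promoter window, shown above, held none of the searched elements.

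Grouped by their place in the loop, 1 of 2 activators was higher and 1 was not called. Of the 8 genes that the CLOCK and BMAL1 dimer is known to drive, 2 were higher (*Cry2* and *Nr1d2*), 3 were lower (*Per1*, *Per2* and *Dbp*) and 3 were not called, beside 37.6% higher and 8.80% lower over all genes, and both genes that were higher lost their call after the GC and length correction. Without the test, by whether the libraries of the genotypes overlapped, 3 of the 10 genes were higher in *rd7*, 5 were lower (*Per3* and *Nr1d1* joining the 3 called) and 2 overlapped. Over all genes tested, 57.1% did not overlap and were higher and 19.5% did not overlap and were lower. Rescaling to the median gene moved the median of all genes from 0.15 to -0.0049, and with it 2 clock genes were higher and 5 lower, against 19.7% and 19.6% of all genes. After the correction for GC and length, 1 was higher and 5 lower, against 12.4% and 15.0% of 12258 genes. Leaving out either wild-type library made calls fewer on both sides, for the clock genes as over all genes. *Clock* and *Dbp* were the only genes of the 10 that passed in every refit. *Per1* passed in 11, *Per2* and *Nr1d2* in 10 and *Cry2* in 7 of the 13.

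**Figure D2:**
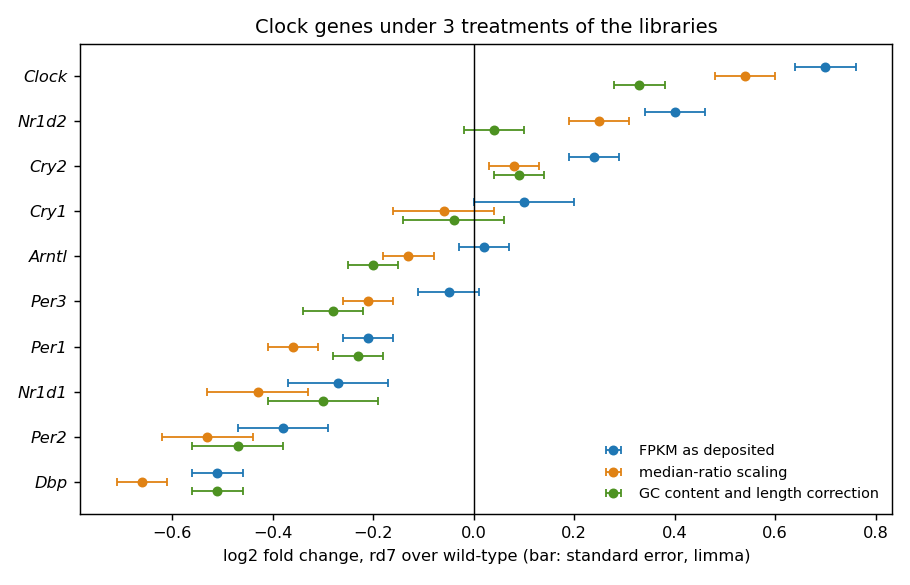
Log2 fold change (*rd7* over wild-type) of each clock gene (points, with bars of 1 standard error from limma), from deposited FPKM, after rescaling to the median gene and after a correction for GC content and length. *Clock* stays above 0 and *Dbp* below 0 under all 3, at 0.70, 0.54 and 0.33 for *Clock* and -0.51, -0.66 and -0.51 for *Dbp*, while *Nr1d2* goes from 0.40 to 0.25 and 0.04.

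Levels of the clock genes spanned an order of magnitude in wild-type retina. *Dbp*, at 67.3 ± 2.82 FPKM (SD, n = 2), and *Nr1d1*, at 65.6 ± 1.52, were the most abundant and overlapped each other, above 93.3% and 93.1% of the genes tested. *Nr1d2* (36.4 ± 1.73), *Arntl* (28.8 ± 0.0897), *Cry2* (27.3 ± 0.158), *Per3* (17.9 ± 0.0457), *Per1* (17.0 ± 0.459), *Cry1* (13.3 ± 0.137), *Clock* (12.6 ± 0.802) and *Per2* (5.76 ± 0.307) followed. In that order, from *Nr1d1* down, no gene's 2 libraries overlapped those of the next. Only *Per2* lay under the median gene, which stood at 9.73 FPKM in wild-type. In *rd7* retina the order changed at the top, with *Nr1d1* at 54.6 ± 8.03 FPKM (SD, n = 2), *Nr1d2* at 48.1 ± 2.53 and *Dbp* at 47.2 ± 0.717. *Nr1d2*, which ranged from 46.3 to 49.9, overlapped both *Nr1d1* (48.9 to 60.2) and *Dbp* (46.7 to 47.7). *Nr1d1* and *Dbp* did not overlap each other in *rd7*. *Clock* stood in the 6th place in *rd7* and in the 9th in wild-type, in *rd7* above *Per3*, *Per1* and *Cry1*. The libraries of a genotype were close for the clock genes, with a median difference of 0.08 on the log2 scale in *rd7* and 0.051 in wild-type, against 0.10 and 0.059 over all genes.

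Ratios between clock genes within a library do not depend on how libraries are scaled, and 14 were fixed. Of the log2 ratios, taken with 0.1 added to each FPKM, 5 were higher in both *rd7* libraries than in both wild-type libraries, 8 were lower and 1 overlapped. Without overlap were thus 13 of the 14, and 12 with 1 or 0.01 added instead. Over all other genes tested, the ratio to *Arntl*, the denominator in 9 of the 14, was higher for 53.4% and lower for 21.2%. For the other pairs no such share was computed. The ratios are described without a test, since an exact permutation test of 2 against 2 libraries cannot give a p under 0.333. *Dbp* over *Nfil3*, which encodes the repressor that competes with DBP for D-boxes, had the widest gap. Its log2 ratio was 2.82 and 2.91 in *rd7* and 3.64 and 3.66 in wild-type, a difference of -0.78 or 1.72-fold. The gap was far wider than the largest difference between libraries of a genotype, 0.10, and -0.76 after the GC and length correction. *Nr1d1* over *Nr1d2* was 0.08 and 0.27 in *rd7* and 0.92 and 0.77 in wild-type, a difference of -0.67 that narrowed to -0.34 with the correction. *Nr1d1* was thus nearly level with *Nr1d2* in *rd7* but well above it in wild-type. *Clock* over *Arntl*, the ratio of the activators, was -0.56 and -0.48 in *rd7* and -1.25 and -1.13 in wild-type. This difference of 0.67 was 0.53 with the correction.

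Relative to *Arntl*, 3 of 9 clock genes were higher without overlap (*Clock*, *Nr1d2* and *Cry2*), 5 were lower (*Dbp*, *Per2*, *Nr1d1*, *Per1* and *Per3*) and *Cry1* overlapped. Over all other genes tested, 53.4% were higher and 21.2% lower without overlap on the same measure. For *Nr1d1* the difference of -0.30 was smaller than the largest gap within a genotype, 0.38. *Dbp* over *Arntl* was 0.63 and 0.74 in *rd7* and 1.27 and 1.17 in wild-type, and *Per2* over *Arntl* was -2.83 and -2.58 against -2.36 and -2.25. *Nr1d2* over *Arntl* was 0.62 and 0.80 against 0.29 and 0.38. After the GC and length correction 3 were higher and 3 lower, since *Nr1d1* and *Per1* then overlapped. *Cry1* over *Cry2* was lower in *rd7* by a difference of -0.14, and *Per1* over *Per2* was higher by 0.17 with libraries that almost touched, neither clear of the largest gap within a genotype (0.21 and 0.17). *Clock* over *Npas2*, which encodes a CLOCK homologue, was 4.96 and 4.75 in *rd7* and 4.64 and 4.60 in wild-type. *Npas2* itself was under 1 FPKM in every library, so the 0.1 added to each FPKM weighs on this ratio and its separation is uncertain.

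**Figure D3:**
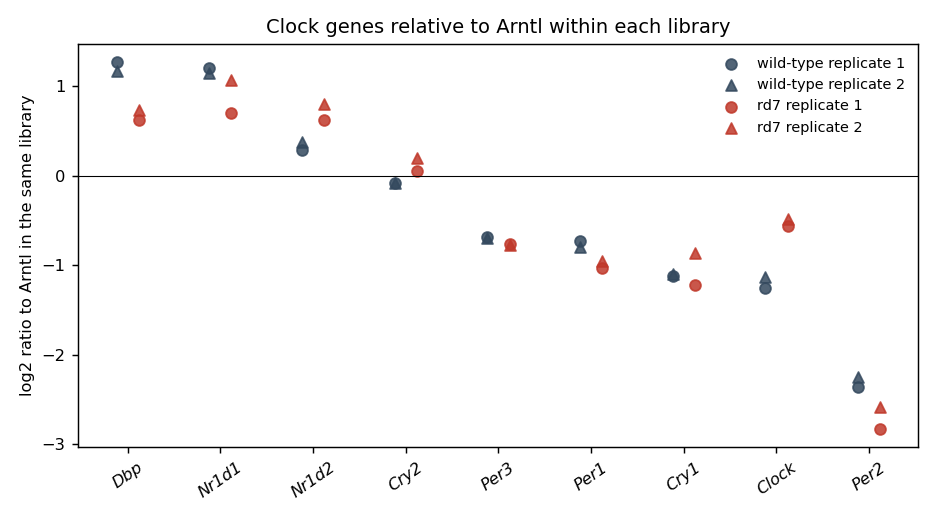
Log2 ratio of each of 9 clock genes to *Arntl* within each of the 4 libraries. Points are single libraries, and the *rd7* points of *Clock* (-0.56 and -0.48) lie above the wild-type points (-1.25 and -1.13) while those of *Dbp* (0.63 and 0.74) lie below (1.27 and 1.17).

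Other transcription factors of the clock were read from a list of 11 genes, of which 9 were tested. Of these 4 were higher in *rd7*, 1 was lower and 4 did not pass, with a median log2 fold change of 0.14 beside 0.15 over all genes. The gene that was lower was *Gm129*, named *Ciart* in RefSeq, which encodes a repressor of the CLOCK dimer and is itself strongly rhythmic. It was at 6.01 and 6.38 FPKM in *rd7* and at 10.5 and 9.79 FPKM in wild-type, without overlap. Its log2 fold change was -0.70 (SE 0.07, adjusted p = 0.00159), and it was -0.85 after rescaling and -0.82 after the GC and length correction (adjusted p = 0.0018). Its promoter window held 3 E-boxes, at 116, 58 and 44 bases before the start, more than any clock gene in the windows searched. They stand in capitals in the 250 bases before the start.
*Ciart*, chr3:95882229-95882478, minus strand: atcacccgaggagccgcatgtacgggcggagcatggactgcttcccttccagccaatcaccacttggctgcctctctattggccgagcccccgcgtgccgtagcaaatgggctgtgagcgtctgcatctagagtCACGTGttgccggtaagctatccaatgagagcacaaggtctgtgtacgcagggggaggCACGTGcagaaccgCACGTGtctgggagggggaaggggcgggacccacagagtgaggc

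The ROR receptors activate *Arntl* through the element that REV-ERB proteins occupy. *Rora* was at 31.5 and 33.5 FPKM in *rd7* and at 22.7 and 22.0 FPKM in wild-type (log2 fold change 0.53, adjusted p = 0.00175). *Rorb*, also a factor of rod development, was at 36.4 and 35.9 against 25.6 and 24.0 FPKM (0.55, adjusted p = 0.00161). Both were higher without overlap, and both fell under the threshold after the GC and length correction, at 0.17 each (adjusted p = 0.0786 and 0.101). *Nfil3* was at 6.55 and 6.24 FPKM in *rd7* and at 5.48 and 5.08 FPKM in wild-type (0.27, adjusted p = 0.0291). Of the relatives of *Dbp* in the PAR bZIP family, *Hlf* was higher (0.33, adjusted p = 0.0282) and *Tef* did not pass (0.14, adjusted p = 0.0715). After rescaling to the median gene *Hlf* was at 0.18 and *Tef* at -0.02, both above the -0.66 of *Dbp* on that scale. *Gm129* was the only gene of the 9 still called after the correction for GC and length. Fewer of the 9 were called higher without wild-type replicate 1 or 2, as over all genes.

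**Figure D4:**
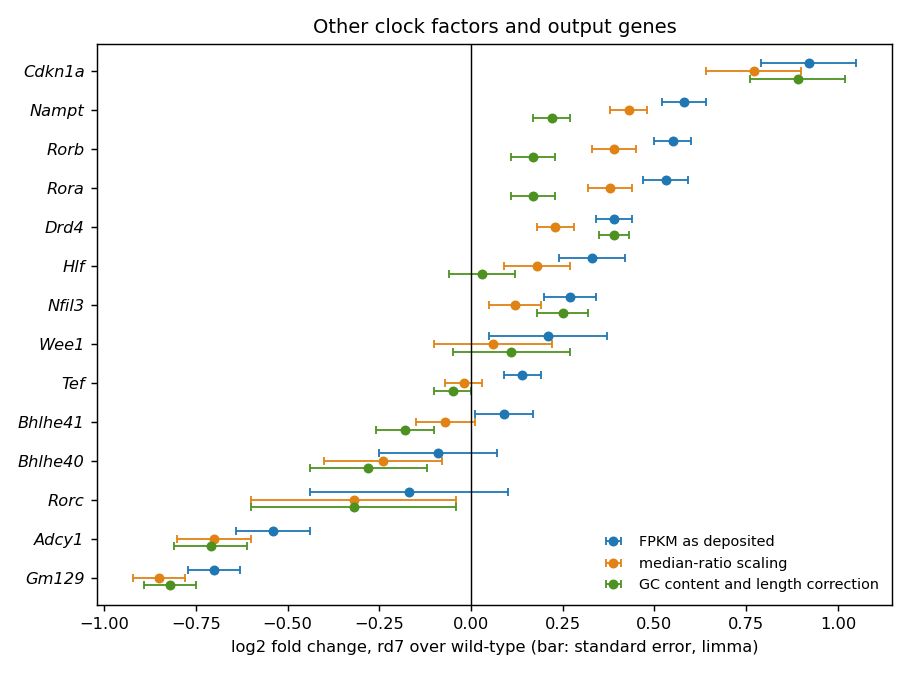
Log2 fold change (*rd7* over wild-type) of the tested genes on the lists of other clock transcription factors and of clock outputs, as points with bars of 1 standard error from limma, under the same 3 treatments of the libraries. *Gm129* (-0.70, -0.85 and -0.82) and *Adcy1* (-0.54, -0.70 and -0.71) lie lowest, and *Cdkn1a* (0.92, 0.77 and 0.89) lies highest.

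Enzymes that modify clock proteins or mark them for degradation were read from a list of 14 genes, and 13 were tested. In *rd7* 7 of the 13 were higher, 1 was lower and 5 did not pass, beside 37.6% higher and 8.80% lower over all genes, and the median of 0.14 was close to the 0.15 of all genes. *Usp2*, a rhythmic deubiquitinase that acts on clock proteins, was at 58.9 and 62.0 FPKM in *rd7* and at 45.8 and 46.2 FPKM in wild-type (0.39, adjusted p = 0.00297). *Csnk1e*, a kinase of PER proteins, was the gene that was lower, at 26.5 and 23.9 against 30.5 and 28.9 FPKM (-0.24, adjusted p = 0.0355). Its close relative *Csnk1d* was higher, just past the threshold (0.14, adjusted p = 0.0491). After the GC and length correction 2 were higher, *Usp2* among them at 0.32 (adjusted p = 0.0108), and 3 were lower. Fewer were called higher without wild-type replicate 1 or 2, as over all genes, and *Csnk1e* was not called lower without either.

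REV-ERB proteins repress through the NCoR complex. Of its 6 listed genes, *Tbl1x* (0.59, adjusted p = 0.00166) and *Tbl1xr1* (0.44, adjusted p = 0.00365) were higher in *rd7* and *Gps2* was lower (-0.30, adjusted p = 0.00651). After the GC and length correction *Tbl1x* was at 0.27 (adjusted p = 0.0217), *Gps2* at -0.27 (adjusted p = 0.0134) and *Tbl1xr1* at 0.07, no longer called (adjusted p = 0.374). The corepressor *Ncor1* (0.14, adjusted p = 0.0528) and the deacetylase *Hdac3* (0.14, adjusted p = 0.249) did not pass. *Gps2* lost its call without wild-type replicate 1 or 2, in fits where calls over all genes also became fewer. Among 6 genes of clock output in the retina, 5 were tested, 3 were higher and 1 was lower. For both lists the shares over all genes were 37.6% higher and 8.80% lower. *Drd4*, the dopamine D4 receptor of photoreceptors, was at 178 and 173 FPKM in *rd7* and at 135 and 134 FPKM in wild-type (0.39, adjusted p = 0.00244). *Adcy1*, the adenylyl cyclase whose rhythm in photoreceptors depends on dopamine and the clock, was at 22.9 and 28.3 against 37.1 FPKM in both wild-type libraries (-0.54, adjusted p = 0.00871). Both kept their call after the GC and length correction, at 0.39 (adjusted p = 0.00388) and -0.71 (adjusted p = 0.00704), but *Adcy1* lost it without wild-type replicate 1 or 2. *Nampt*, the enzyme of NAD salvage driven by the CLOCK dimer, was higher (0.58, adjusted p = 0.00151), as was *Cdkn1a* (0.92, adjusted p = 0.00397), a cell cycle inhibitor gene repressed by REV-ERBα. *Aanat*, the enzyme of melatonin synthesis, was under 0.3 FPKM in every library and was not tested.

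*Per1* is also induced rapidly by light and neural activity, so immediate early genes were read beside it. Of 17 listed, 11 were tested, and 2 were higher, 4 were lower and 5 did not pass in *rd7*. Over all genes 37.6% were higher and 8.80% lower. The genes that were lower were *Npas4* (-0.78, adjusted p = 0.00627), *Ier2* (-0.65, adjusted p = 0.00297), *Dusp1* (-0.43, adjusted p = 0.00642) and *Nr4a1* (-0.18, adjusted p = 0.0449). *Egr1* (0.98, adjusted p = 0.0327) and *Fosl2* (0.42, adjusted p = 0.0383) were higher. *Egr1* was uneven between the *rd7* libraries, at 20.5 and 10.8 FPKM against 7.82 and 7.24 FPKM in wild-type. Without *rd7* replicate 1 more were called higher, and without wild-type replicate 1 or 2 fewer were called lower, as over all genes. After rescaling to the median gene 5 were lower, beside 19.6% of all genes, and *Egr1* was at 0.83 and not called. *Per1* and *Per2* were thus lower beside several, but not all, of these genes, and the part of such a response in their levels was not tested.

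Properties of the transcripts moved with the differences. Over 12258 tested genes with an annotated exon sequence, the log2 fold change fell with exonic GC content (Spearman's rank correlation -0.44) and rose with exonic length (0.28). Over the 10 clock genes the rank correlation with GC content was -0.79. These are values across genes of the same 4 libraries and not across independent replicates. *Nr1d2* (41.5% GC) and *Clock* (42.3%) had the lowest GC content of the 10 and were higher in *rd7*, and *Dbp* (58.0%) and *Per1* (58.7%) had the highest and were lower. The median of all tested genes was 50.1%. With splines of GC content and length taken out of each library, the rank correlation over all genes was -0.00. *Clock* was then at 0.33 (adjusted p = 0.0102), *Dbp* at -0.51 (adjusted p = 0.00325), *Per2* at -0.47 (adjusted p = 0.0174) and *Per1* at -0.23 (adjusted p = 0.0272). *Nr1d2* (0.04) and *Cry2* (0.09, adjusted p = 0.228) were not called.

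**Figure D5:**
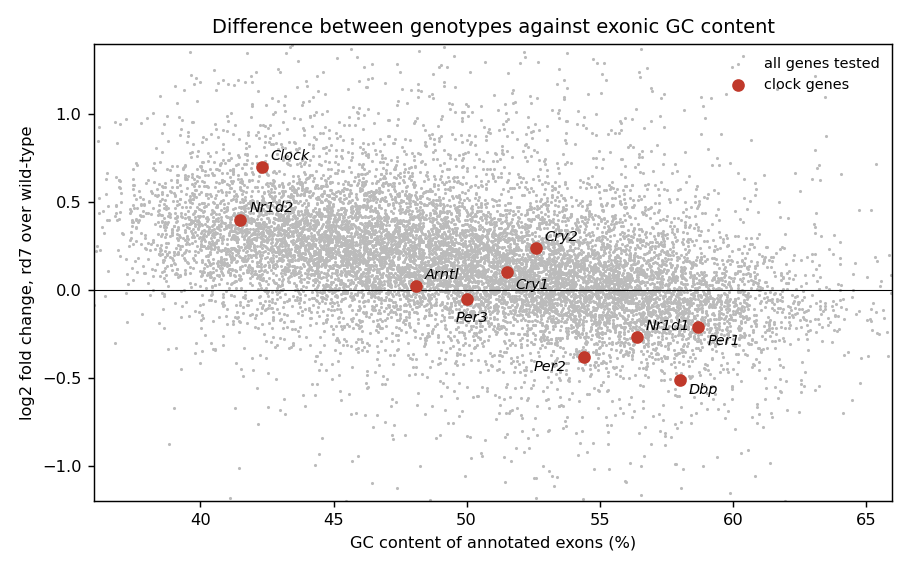
Log2 fold change (*rd7* over wild-type) against the GC content of annotated exons, with 12029 tested genes in grey and the 10 clock genes in red; 229 genes outside the axis limits are not drawn. The cloud slopes down from left to right, with *Clock* (42.3% GC, 0.70) and *Nr1d2* (41.5%, 0.40) at the upper left and *Dbp* (58.0%, -0.51) and *Per1* (58.7%, -0.21) at the lower right.

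*Nr1d1*, *Dbp* and *Cry2* each overlap a neighbour on the opposite strand, and the library protocol as described does not mark strand, so reads from the overlap cannot be told apart. *Nr1d1* shares 263 bases, or 8.42% of its exonic bases, with *Thra*, the thyroid hormone receptor α gene. *Thra* was at 71.6 and 69.0 FPKM in *rd7* and at 54.9 and 57.6 FPKM in wild-type (log2 fold change 0.32, adjusted p = 0.0054), opposite in sign to *Nr1d1*. *Dbp* shares 491 exonic bases, 16.7% of its own, with *Sphk2*, a sphingosine kinase gene. *Sphk2* was at 7.67 and 6.89 FPKM in *rd7* and at 6.88 and 6.75 FPKM in wild-type, far under the level of *Dbp* in every library (0.09, adjusted p = 0.354). Of the 50-base stretches in the protein-coding transcripts of these genes, 7.95% of those of *Nr1d1* and 24.2% of those of *Dbp* also occur in the neighbour. For the other clock genes at most 0.0994% occur in a protein-coding transcript of another gene. *Cry2* shares 295 exonic bases (4.67%) with *D930015M05Rik*, which is not analysed here.

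Cell type markers differed between the genotypes as well, and their counts are read beside the 37.6% of all genes called higher and the 8.80% called lower. Cone markers were higher in *rd7* for 8 of 10 tested, with a summed level of 4517 and 4809 FPKM against 1453 and 1497 in wild-type. Rod markers were lower for 4 of 7 tested, and summed to 8875 and 9627 FPKM against 12136 and 12310. Bipolar cell markers were higher for 5 of 6 (356 and 305 against 235 and 232 FPKM), Müller cell markers for 4 of 8, amacrine cell markers for 3 of 4, ganglion cell markers for 2 of 6, horizontal cell markers for 3 of 3 and microglia markers for 2 of 3. Pigment epithelium markers were higher for 3 of 5, at a sum of 59.4 and 55.2 against 34.3 and 22.2 FPKM. Blood markers were lower for 3 of 4, at 70.9 and 147 against 256 and 297 FPKM, and lens markers were uneven between libraries, at 20.6 and 41.8 against 33.2 and 71.4 FPKM. After rescaling to the median gene, 19.7% of all genes were higher and 19.6% lower. The counts higher were then 8 for cone, 3 for bipolar, 4 for Müller, 1 for ganglion and 2 for horizontal cell markers. They were 2 for microglia and 3 for pigment epithelium markers, and no amacrine cell marker was called. Lower on that scale were 4 rod, 1 cone, 1 Müller, 1 ganglion cell and 3 blood markers. After the GC and length correction, 12.4% of all genes were higher and 15.0% lower. The counts higher were then 8, 3, 4, 1, 1, 2 and 2 in the same order, with 1 for amacrine cells. Lower were 5 rod, 1 pigment epithelium and 1 blood marker. The blood markers *Hba-a1* and *Hbb-b1*, called lower before the correction, had no annotated exon sequence and were not in the corrected fit. The clock genes are expressed in many cell types, so the part of these shifts in their differences was not tested.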

How the data were processed

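RNA-seq of 4 retinal libraries was used, 2 of *rd7* and 2 of wild-type mice. Per the submitters' processing notes, the authors aligned reads to mm9 with TopHat 1.4.1 and quantified genes with Cufflinks 1.3.0. The deposited FPKM values carry an estimate status for each gene and library, and 262 loci without a successful status throughout were left out. A Cuffdiff table with the authors' pooled FPKM, fold changes, p-values and q-values was not used. Genes averaging an FPKM of 1 or more were compared on the log2(FPKM + 0.1) scale with limma 3.58.1, run in R 4.3.3 without a block (two-sided, eBayes with a trend, FDR of 5% after Benjamini-Hochberg adjustment). A fold change on this scale understates that of genes with low FPKM. The fit was first tested on simulated data with known changes in 200 genes. Those data held no shift between libraries and no trend with GC content, so they cannot speak to the scaling. Python 3.11.15 and scipy 1.17.1 gave the other values.

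The clock genes, the gene lists and the tests were chosen with earlier results of these data known. All 10 clock genes were named, other genes only from fixed lists (called genes first), and any gene overlapping a clock gene. Exonic length and GC content came from GENCODE vM1 on the same build, for 96.9% of tested genes, and the correction fitted natural splines (4 degrees of freedom each) to each library's deviation from gene means. Rescaling to the median gene divided each library by its median ratio to the gene means. Promoters came from RefSeq on GRCm38.p6, a different build, and their coordinates were not mixed with those of mm9. Depth was estimated from the lowest values of genes over 800 bases, within a window of 0.02 to 0.036 FPKM times kb chosen by eye, and covers counting error only. Samples with the same replicate number did not deviate together (Pearson's r -0.0265). Alternatives were a replicate block, eBayes without a trend, an FDR of 1%, the GC and length correction, quantile normalization, median-ratio scaling, a filter at a mean of 5 or no filter, pseudocounts of 0.01 and 1, and leaving out each library. Some listed genes are not reported here by name.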

Additional observations from a re-analysis of the deposited data

How the results depend on the processing

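The counts of clock genes depended on scaling and on the wild-type libraries, as did those over all genes. Higher in *rd7* were 3 clock genes, but 1 after the GC and length correction and 1 if low genes were kept, and from 1 to 4 with a library left out. Lower were 3, but 5 after the GC and length correction, 5 under quantile normalization, 5 under median-ratio scaling, 1 at an FDR of 1%, and from 1 to 4 with a library left out. Over all genes 4755 were higher and 1114 lower. These became 1524 and 1836 after the GC and length correction, 2350 and 2404 under quantile normalization, 2492 and 2479 under median-ratio scaling, 2249 and 455 if low genes were kept, and 2582 and 446 at an FDR of 1%. Leaving out a library gave from 1293 to 5484 and from 224 to 1601, lowest without wild-type replicate 1. A genotype with 1 library left is assumed to vary like the other. With a replicate block 4508 were higher and 1091 lower, and 3 clock genes were called on each side. The numbers do not pair the samples by any label.

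Of 90 values of single clock genes under the 9 other settings, 72 kept direction and side of the threshold, 5 gained a call, 7 lost one and 6 turned direction. With a library left out, of 40 values 29 kept both, 2 gained a call, 7 lost one and 2 turned. *Arntl* turned to -0.20 after the GC and length correction, -0.11 under quantile normalization and -0.13 under median-ratio scaling, and lay between -0.01 and 0.06 across the fits that left out a library. *Cry1* turned to -0.04, -0.06 and -0.06 under the same settings and lay between -0.04 and 0.23 across those fits. The cause was not tested. Counting error at the estimated depth was at most 3.42% for a clock gene in a library, and with 2 pools per genotype the spread between animals is not known.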
